A study of Homo sapiens with 8 samples.

Results

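Oxidative phosphorylation is the mitochondrial process in which electrons from NADH and succinate pass along a chain of inner membrane complexes to oxygen, and the proton gradient built on the way drives ATP synthesis. Complex I oxidizes NADH, complex II oxidizes succinate, complex III passes electrons to cytochrome c, complex IV reduces oxygen, and complex V is the ATP synthase. Most of their subunits are encoded in the nucleus and scattered over the chromosomes, while a small set is encoded by the mitochondrial genome, and the complexes need their subunits in fixed proportions. The genes described here are those whose array name begins with NDUFA, NDUFB, NDUFC, NDUFS, NDUFV or UQCR, with COX and a digit from 4 to 8, or with ATP5, or is SDHA, SDHB, SDHC or SDHD. They were read by 110 of the 34127 gene probes of the array and make up 90 of 27248 genes. By current nomenclature 37 of the 90 belong to complex I, 4 to complex II, 7 to complex III, 19 to complex IV and 16 to complex V. The remaining 7 are no subunits, namely the complex I assembly factors NDUFAF1 to NDUFAF4, ATP5SL (now DMAC2), ATP5S (now DMAC2L) and COX4NB (now EMC8), and they are given apart. NDUFA4 and its paralogue NDUFA4L2 carry complex I names but were counted with complex IV, to which they are now assigned. Gene names are those of the array, with the current name where the results turn on it.

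Total RNA was hybridized to one-color Agilent arrays from MIA PaCa-2, a line from a pancreatic ductal adenocarcinoma, and Capan-1, a line from a liver metastasis of such a tumor. In each line, 2 arrays were of cells taken 48 h after transfection of a siRNA against HOXB7 at 10 nM, and 2 were of parental cells. The question was which transcripts change when HOXB7, a homeobox transcription factor, is silenced. The labels do not name the duplex, no array held a scrambled siRNA or the transfection reagent alone, the lines were grown in different media, and nothing states that duplicates came from separate cultures, so p-values measure the spread between duplicate arrays, which may be technical. All 4 arrays of a line lay on 1 slide, so line and slide cannot be told apart, and on both slides the siRNA samples occupied positions 1 and 2 and the parental samples positions 3 and 4, so position and treatment cannot be told apart either.

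HOXB7 had a log2 level, relative to the 75th percentile of the array, of -7.77 and -7.78 in MIA PaCa-2 siRNA and -4.82 and -4.10 in parental cells, and of -5.26 and -4.80 in Capan-1 siRNA and -2.48 and -2.34 in parental cells. It was at least 2.86-fold lower after siRNA in MIA PaCa-2, where it was not well above background (limma, Benjamini-Hochberg adjusted p = 0.0174), and its difference was -2.62 in Capan-1 (adjusted p = 0.126), which did not pass the test. The 75th percentile of log2 intensity, used to scale each array, ran from 7.95 to 8.36 over the 8 arrays, and 0 probes were saturated. EPCAM and CDH1, which mark epithelial cells, were well above background on both Capan-1 parental arrays and on neither MIA PaCa-2 parental array, and all 5 epithelial and all 3 ductal genes listed were lower in MIA PaCa-2. KRT18 was so called only through another probe than its brightest, which differed by -0.21 (adjusted p = 0.0803). That probe was bright in both lines, with 7.50 and 7.67 on the MIA PaCa-2 and 7.82 and 7.77 on the Capan-1 parental arrays. VIM, a mesenchymal filament gene, had 7.87 and 8.01 on the MIA PaCa-2 and -1.01 and -1.11 on the Capan-1 parental arrays. Of the 3 mesenchymal genes listed 2 were higher in MIA PaCa-2, while CDH2 was lower (-4.46, adjusted p = 3.83e-05), with -3.38 and -4.14 against 0.78 and 0.61. Of other markers tested between the lines, 2 of 4 fibroblast genes were higher in MIA PaCa-2 and 1 lower, 2 of 4 leukocyte genes higher and 2 lower, 1 of 2 endothelial genes higher and 1 lower, and both acinar genes lower. Among all these markers the only siRNA call in either line was MUC1, lower in MIA PaCa-2 (-0.92).

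The probes decide what was measured, and 3 of them are shown because results below turn on them. They are the probes of ATP5G1, ATP5G2 and ATP5G3, genes that code for the same mature ring subunit c of the ATP synthase and that differed between the lines in opposite directions. The first 30 of the 60 bases of each probe are given 5′ to 3′ in lower case, as deposited. Positions are those of the whole probe in hg18, and a span beyond the length of the probe means that it crosses an intron.
ATP5G1, chr17:44325797-44326771: ttattcatttctccagctctgatccgctgt
ATP5G2, chr12:52345344-52345403: tgtctgatggtagcctttctcatcctcttt
ATP5G3, chr2:175751260-175751319: tgaagctatgggtctcttttgtttgatggt
The longest run of bases shared by the whole 60-base probes was 6 between ATP5G1 and ATP5G2, 6 between ATP5G1 and ATP5G3 and 10 between ATP5G2 and ATP5G3, so these probes read different stretches. The longest shared run among all isoform families compared was 14, between ATP5L and its paralogue ATP5L2.

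Nuclear genes of the respiratory chain are known targets of the factors NRF1, GABPA, YY1 and ESRRA, so their promoters were searched on both strands for 4 motifs. RefSeq promoters of GRCh38.p14, from 250 bases before to 50 after the gene start, were held for 74 of the 90 genes. The GABPA (ETS) motif CCGGAAG was present in 21 of 74 (28.4%), against 10.6% of 27231 other promoters and 14.2% of the 15769 of other protein-coding genes. The YY1 motif AAGATGGCG was present in 8 (10.8% against 1.83%), the 10-letter NRF1 motif, the same on both strands and in capitals first in the SDHD promoter printed here, in 4 (5.41% against 1.35%) and the ESRRA motif TCAAGGTCA in 1 (1.35% against 0.356%). No motif overlaps another in the stretches shown. These shares describe letters in a window and do not show that a factor binds there. The 200 bases upstream of the start are shown for SDHD, the only gene with 3 of the 4 motifs, for ATP5J, which held both the GABPA and the YY1 motif, and for NDUFA1, with matches in capitals. In SDHD the ESRRA motif lay in the part after the start and is not shown.
SDHD, chr11:112086673-112086872, plus strand: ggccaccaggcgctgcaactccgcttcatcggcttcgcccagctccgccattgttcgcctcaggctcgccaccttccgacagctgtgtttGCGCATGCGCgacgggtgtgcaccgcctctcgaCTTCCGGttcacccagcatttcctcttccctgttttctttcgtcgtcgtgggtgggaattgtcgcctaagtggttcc
ATP5J, chr21:25735055-25735254, minus strand: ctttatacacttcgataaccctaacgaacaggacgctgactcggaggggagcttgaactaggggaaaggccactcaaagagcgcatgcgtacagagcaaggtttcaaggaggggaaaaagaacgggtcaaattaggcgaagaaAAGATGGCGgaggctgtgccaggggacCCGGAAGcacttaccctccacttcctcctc
NDUFA1, chrX:119871632-119871831, plus strand: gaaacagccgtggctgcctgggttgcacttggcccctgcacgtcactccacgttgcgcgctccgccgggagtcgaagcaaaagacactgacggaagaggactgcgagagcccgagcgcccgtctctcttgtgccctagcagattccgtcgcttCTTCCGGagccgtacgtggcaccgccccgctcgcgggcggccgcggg
In SDHD and NDUFA1 the GABPA motif is on the opposite strand, so it reads CTTCCGG. Members with and without this motif had a median log2 fold change after siRNA of 0.039 and -0.016 in MIA PaCa-2, and of 0.109 and 0.080 in Capan-1.

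Nearly all the genes gave a signal in both lines. The probe of highest level was well above background on all 8 arrays for 85 of 90 genes (94.4%), compared with 60.7% of all genes. The genes without a full signal were all tissue-restricted forms or paralogues of complex IV subunits. COX8C, a testis form, and NDUFA4L2, a paralogue known to be induced by hypoxia, were well above background on no array. COX7A1, the heart and skeletal muscle form of subunit VIIa, was well above background on only 1 array each of the MIA PaCa-2 siRNA, MIA PaCa-2 parental and Capan-1 parental groups. COX7B2, the testis form of subunit VIIb, was above background on both Capan-1 parental arrays and 1 Capan-1 siRNA array, and on no MIA PaCa-2 array. COX4I2, a tissue-restricted form of subunit IV, missed 1 Capan-1 siRNA array. The testis form COX6B2 was above background on all 8 arrays, but its 2 probes gave line differences of 0.16 and -1.26, so its level depends on the probe read. The median level of the 90 genes was 4.59, at the 96.9th percentile of all genes, and on single arrays it ran from 4.69 to 4.78 in MIA PaCa-2 and from 4.36 to 4.48 in Capan-1. Of the striated muscle genes ACTA1, CKM and MYH7, only MYH7 was well above background on any array.

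**Figure D1:**
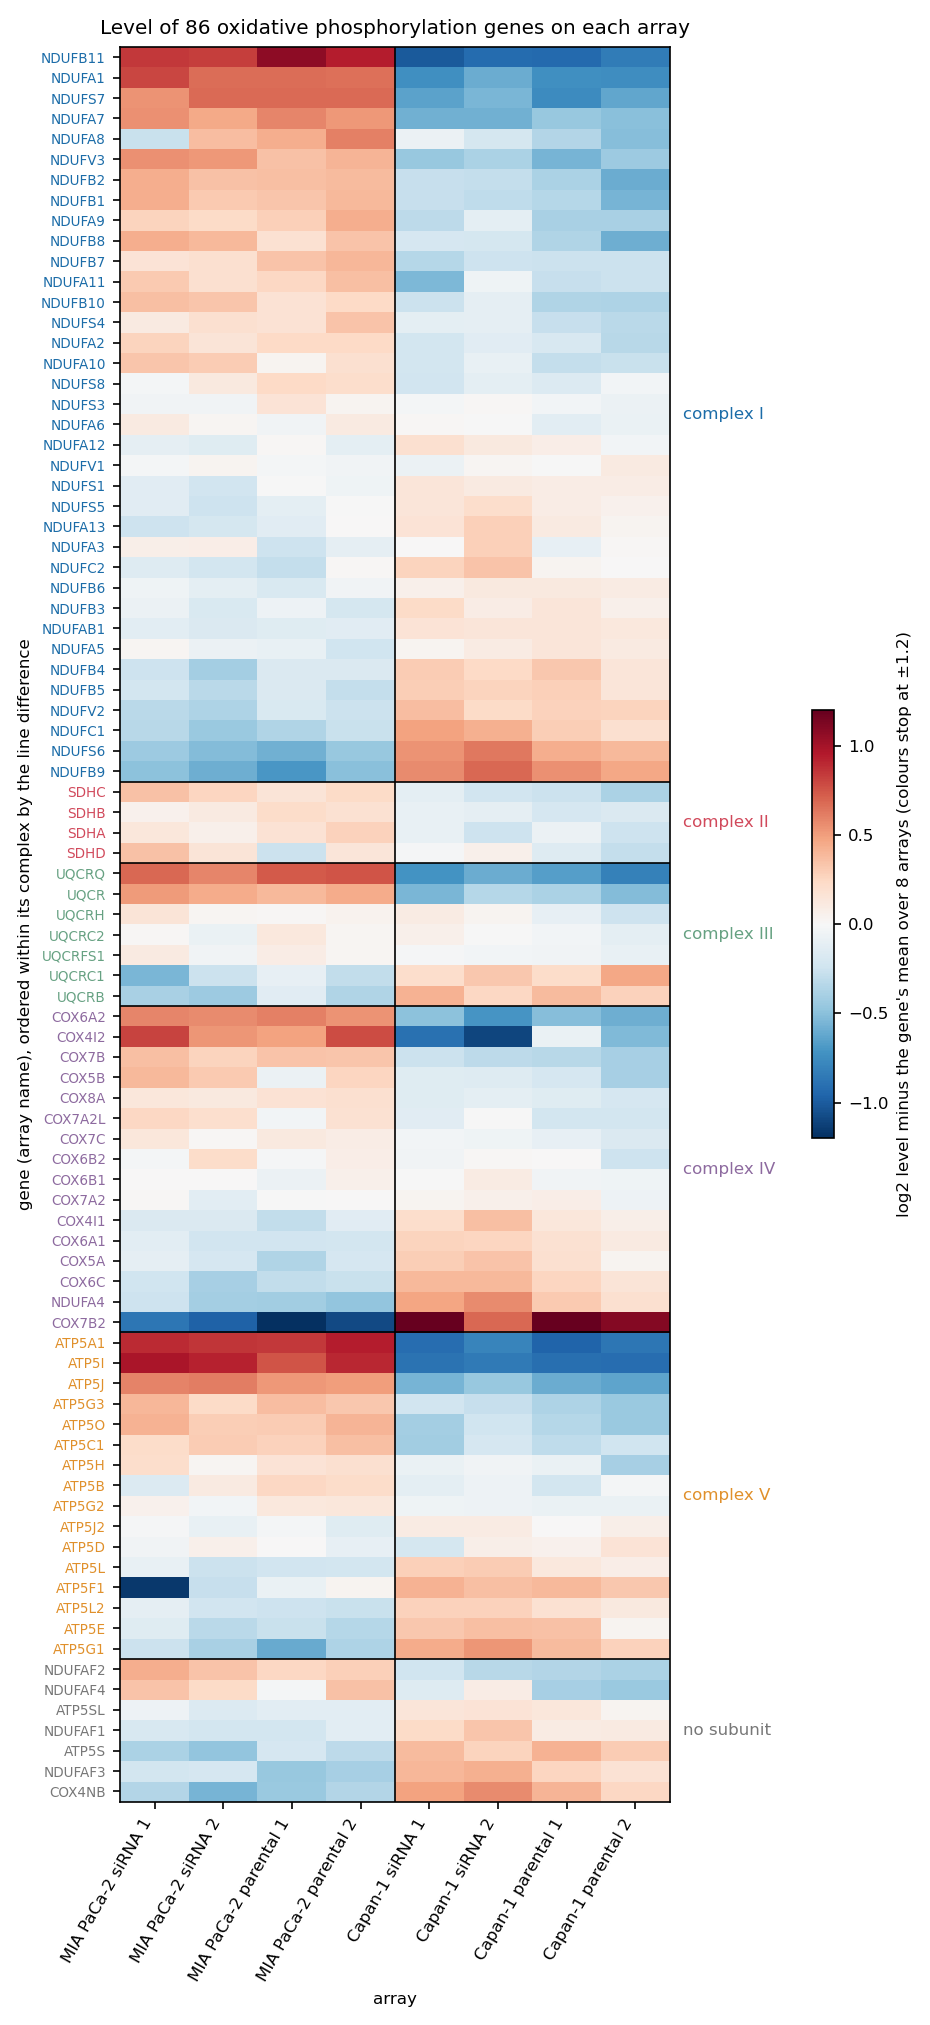
Level of 86 of the 87 genes tested on each of the 8 arrays, as log2 intensity relative to the array's 75th percentile, minus the gene's mean over the 8 arrays. Rows are genes grouped by complex and ordered by the line difference, columns are arrays, red is above and blue below the gene's mean, and colors stop at ±1.2. The split between the MIA PaCa-2 and the Capan-1 arrays is visible in most rows, while siRNA and parental arrays of a line differ in few rows, among them ATP5F1.

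In MIA PaCa-2 no member passed the test after HOXB7 siRNA. In simulated arrays the same fit recovered 0% of changes of 0.5 log2, made in 200 probes drawn at random from 25554, bright and dim. The share recovered among bright probes such as the members was not measured. Of 86 genes tested, limma called 0 lower and 0 higher at an adjusted p under 0.05, whereas 1.12% of all 19169 genes tested were called lower and 1.15% higher. Among genes of the intensity range that holds the middle 80% of the members, 0.617% were lower and 0.583% higher. Without adjustment, a p under 0.05 was reached by 2 members below 0 and 1 above, compared with 10.4% and 10.3% of all genes and 10.5% and 8.19% in that intensity range. Both siRNA arrays were below both parental arrays for 22 members (25.6%) and above for 19 (22.1%), near the 24.3% and 27.7% of all genes and the 28.5% and 26.5% of the intensity range. The median log2 fold change of the members was -0.016, that of all genes 0.016, and the median over the 500 probes nearest in intensity to each member -0.005. RNA was taken from whole cultures, so a changed level per cell and a changed mix of cells cannot be told apart.

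Some of the smallest p-values below 0 belonged to genes with uneven duplicates. ATP5F1 (now ATP5PB), stator subunit b of the ATP synthase, was at 3.42 and 4.31 after siRNA in MIA PaCa-2 and at 4.51 and 4.62 without it, a difference of -0.70 ± 0.27 (adjusted p = 0.224). Its first siRNA array stood apart, and the difference was -1.14 without the second siRNA array, where it passed the test (adjusted p = 0.0144), and -0.26 without the first. The first of these values rests on the single array that stood apart, which is taken to vary like the other groups. NDUFA8, a membrane arm subunit chosen after its values were seen, showed a like pattern, with 4.60 and 5.24 after siRNA and 5.31 and 5.48 in parental cells (-0.47 ± 0.22, adjusted p = 0.288). NDUFB7, another membrane arm subunit, differed by -0.19 ± 0.08 (adjusted p = 0.246). The rises of smallest p were 0.21 ± 0.08 for the assembly factor NDUFAF3 (adjusted p = 0.206), 0.21 ± 0.09 for NDUFA10 (adjusted p = 0.285) and 0.25 ± 0.12 for NDUFA3 (adjusted p = 0.300), the last 2 being complex I accessory subunits. Over all 8 arrays none of these differences passed the test.

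**Figure D2:**
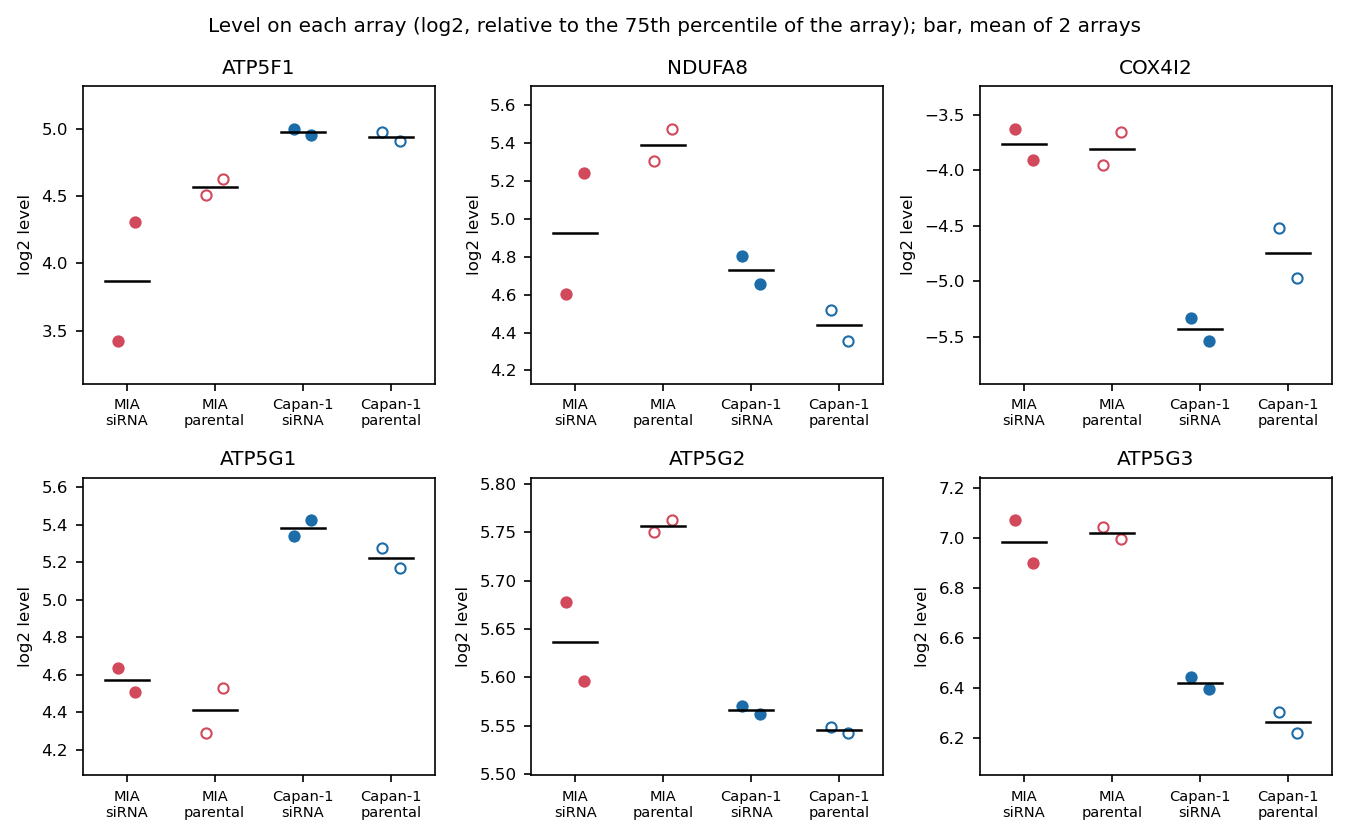
Log2 level on each of the 8 arrays of ATP5F1, NDUFA8 and COX4I2, members with a low log2 fold change after siRNA in 1 of the lines, and of ATP5G1, ATP5G2 and ATP5G3, genes of the ATP synthase ring subunit c. Filled points are siRNA arrays, open points parental arrays, red is MIA PaCa-2 (labeled MIA), blue Capan-1, bars are means of 2 arrays, and each panel has its own vertical scale. The first siRNA array of MIA PaCa-2 stands apart in ATP5F1 and NDUFA8, both siRNA arrays of COX4I2 lie below both parental arrays in Capan-1, and the line difference points down in ATP5G1 and up in ATP5G3.

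Taken by complex, the MIA PaCa-2 medians lay between -0.107 and 0.038. They were -0.049 for complex I, -0.004 for complex II, -0.107 for complex III, 0.038 for complex IV and 0.013 for complex V, and 0.012 for the genes that are no subunits. Relative to the 500 probes nearest in intensity, complex I had -0.0395 (15 genes above and 22 below) and complex III -0.095 (2 above and 5 below). The other sets had -0.0001 to 0.016. Of the 7 core subunits of complex I, 6 were below 0, and their median was -0.14. Of its 30 accessory subunits 16 were below 0, with a median of -0.020. Below 0 were also 9051 of 19134 of all genes and 1522 of 2917 in the members' intensity range. The 4 tested probes of SDHA, the succinate-oxidizing flavoprotein of complex II, ranged from -0.38 to -0.12, and the 3 probes of its membrane anchor SDHD from 0.23 to 0.53. None of these probes passed the test, and SDHA has near-identical copies elsewhere in the genome that its probes may also read.

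In Capan-1 no member passed the test either. Of 87 genes tested, 0 were lower and 0 higher, against 0% of all 18886 genes lower and 0.00529% higher, which is 1 gene. Without adjustment, 2 members below 0 and 5 above reached a p under 0.05, where all genes gave 6.85% and 5.46% and the members' intensity range 3.57% and 6.55%. The members' values lay mostly on 1 side of 0. The median log2 fold change was 0.087, with 70 genes above 0 and 17 below, against -0.003 for all genes. Bright probes as a whole were shifted the same way, since the median was 0.055 in the members' intensity range and 0.066 over the 500 probes nearest to each member. Relative to these nearest probes, 50 members were above and 37 below, with a median difference of 0.020. Both siRNA arrays were above both parental arrays for 51 of the 87 members (58.6%), compared with 26.4% of all genes and 39.7% of genes in the members' intensity range. They were below for 4 (4.60%), compared with 27.7% and 19.8%. This direction depends on the scaling of the arrays, as the median of the members was -0.066 without scaling and -0.19 when the spike-in probes set the scale, where that of all genes was -0.16 and -0.28. The distance from all genes depends on the intensity correction, as the median of the members was 0.029 against -0.0046 for all genes with quantile scaling, 0.029 against -0.0035 with a running median over intensity and 0.069 against 0.054 with normexp background correction.

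By complex, the Capan-1 median was 0.086 for complex I, 0.117 for complex II, 0.039 for complex III, 0.101 for complex IV, 0.067 for complex V and 0.179 for the genes that are no subunits. Relative to the 500 probes nearest in intensity, complex III (-0.057, with 2 genes above and 5 below) and complex V (-0.020, 7 above and 9 below) lay below 0, and the other sets had 0.017 to 0.094. The rises of smallest p were NDUFA4 at 0.27 ± 0.10 (adjusted p = 0.362), the assembly factor NDUFAF4 at 0.39 ± 0.15 (adjusted p = 0.386) and UQCRH, the hinge protein of complex III, at 0.24 ± 0.10 (adjusted p = 0.395). Among the lowest p-values below 0 were those of COX4I2 and of ATP5D, a subunit of the ATP synthase rotor. COX4I2 had -5.33 and -5.54 after siRNA and -4.52 and -4.97 in parental cells. Its groups did not overlap, which in this direction held for 27.7% of all genes. The difference of COX4I2 was -0.69 ± 0.20 (adjusted p = 0.311), and 0.02 with normexp background correction. ATP5D differed by -0.18 ± 0.12 (adjusted p = 0.585).

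**Figure D3:**
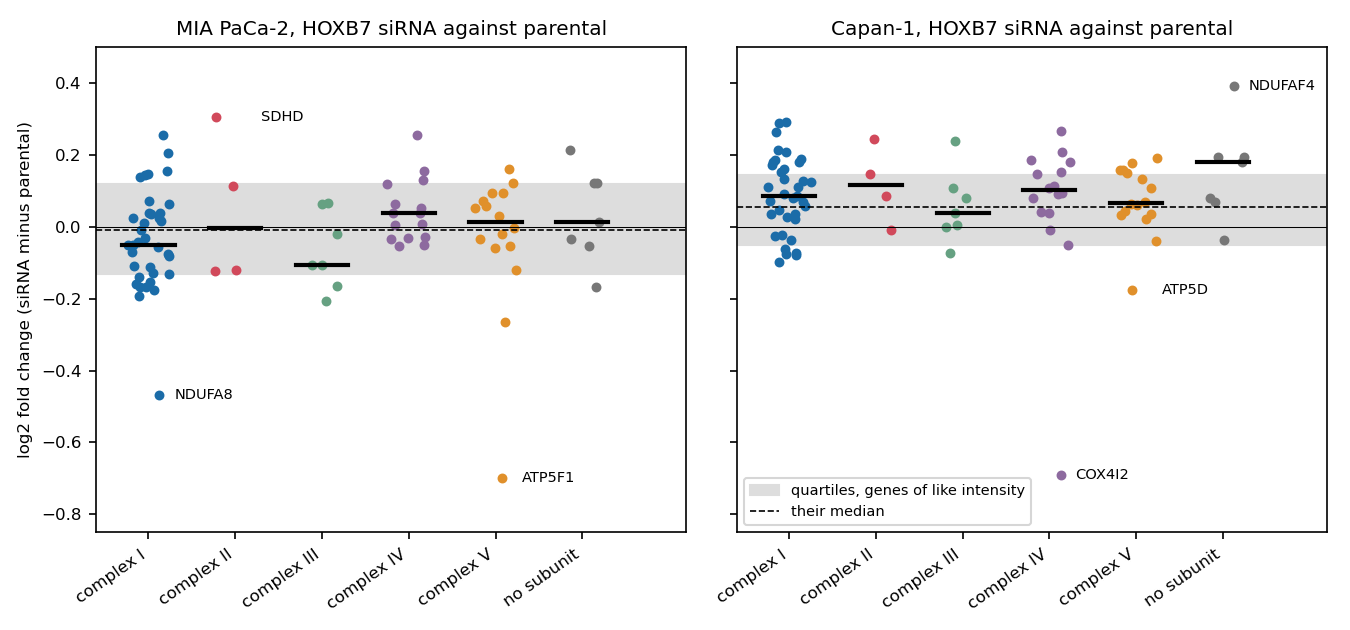
Log2 fold change of HOXB7 siRNA against parental cells in MIA PaCa-2 (left) and Capan-1 (right) for all but 1 of the members tested, by complex. Points are genes, spread sideways only for legibility, thick bars are medians over all members tested, the gray band spans the quartiles of all genes in the members' intensity range and the dashed line is their median. All but 5 of the genes shown lie within 0.3 of 0 in both lines, and in Capan-1 the medians of each complex and of the genes of like intensity lie above 0.

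No member passed the test of a difference in siRNA effect between the lines. Of 87 genes limma called 0 in either direction, against 1 of all 20571 genes, lower in MIA PaCa-2 (0.00486%). Without adjustment, NDUFA8 below 0 (-0.76 ± 0.30) and COX4I2 above (0.73 ± 0.28) had a p under 0.05. All genes gave 5.08% and 6.27%, and the members' intensity range 5.73% and 2.54%. The first MIA PaCa-2 siRNA array stood apart for NDUFA8. COX4I2 was dim, with a Capan-1 siRNA array not well above background, and its difference was 0.16 at its lowest over the alternatives. Members were shifted by a median of -0.10 (MIA PaCa-2 minus Capan-1), against 0.015 for all genes and -0.070 for the nearest probes in intensity. Of the 86 genes tested in both lines, 45 (52.3%) had the same sign in both, 35 of them above 0 and 10 below, compared with 61.4% of all genes.

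The parental lines differed at most of these genes. MIA PaCa-2 was higher than Capan-1 at 41 of 87 genes (47.1%) and lower at 26 (29.9%), and 20 did not pass the test. All genes gave 40.1% higher and 31.7% lower, and genes in the members' intensity range 44.9% and 29.1%, so the shares of members were near the background. The median difference was 0.16, against 0.10 for all genes and 0.17 for the nearest probes in intensity. Relative to these nearest probes, the median was 0.013 for complex I, 0.247 for complex II, -0.037 for complex III, -0.070 for complex IV and 0.106 for complex V. For the genes that are no subunits it was -0.494. Complex II rests on 4 genes and the no-subunit set on 7. The standard deviation of the differences over genes was 0.71 for members, 1.03 for other genes in their intensity range and 1.96 for all others, given as a description. The lines differed in slide and medium too, and these cannot be told apart from the cells.

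In complex I, 18 of 37 genes were higher in MIA PaCa-2 and 9 lower. NDUFB11, a membrane arm subunit, had the highest difference of all members. Its log2 level was 6.27 and 6.14 on the MIA PaCa-2 and 4.27 and 4.37 on the Capan-1 parental arrays, a difference of 1.89 ± 0.09 (SE, n = 2 per group; adjusted p = 9.68e-06). NDUFA1, another membrane arm subunit, had 5.55 and 5.54 against 4.14 and 4.13 (1.40 ± 0.09, adjusted p = 3.42e-05). NDUFS7, the core subunit that hands electrons to quinone, had 4.16 and 4.16 against 2.73 and 2.86 (1.37 ± 0.09, adjusted p = 4.76e-05). The groups did not overlap in any of these genes. Among all genes, MIA PaCa-2 lay above Capan-1 without overlap for 47.2% and below it for 39.2%. Lower in MIA PaCa-2 were the membrane arm subunit NDUFB9, with 5.98 and 6.19 against 7.24 and 7.14 (-1.10 ± 0.11, adjusted p = 0.000198), and the matrix arm subunit NDUFS6, with 4.27 and 4.39 against 5.28 and 5.24 (-0.93 ± 0.09, adjusted p = 0.000191). Of the core subunits, NDUFS8, which carries iron-sulfur clusters, was higher as well (0.32 ± 0.10, adjusted p = 0.0249), and NDUFV2, the partner of the NADH-binding subunit, was lower (-0.49 ± 0.09, adjusted p = 0.00292). NDUFS1, NDUFS3 and NDUFV1, the NADH-binding flavoprotein, had -0.12, 0.15 and -0.08 and did not pass the test. Calls within the complex thus went in both directions.

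In complex II, 3 of 4 genes were higher in MIA PaCa-2, and none was lower, where all genes gave 40.1% and 31.7%. The membrane anchor SDHC had 4.03 and 4.10 against 3.61 and 3.49 (0.51 ± 0.09, adjusted p = 0.00318), the iron-sulfur subunit SDHB differed by 0.39 ± 0.07 (adjusted p = 0.00417) and SDHA by 0.38 ± 0.11 (adjusted p = 0.0198). SDHD had 0.17 ± 0.15 and did not pass. In complex III, 2 of the 7 genes matched by name were higher and 2 lower. CYC1, the cytochrome c1 gene of this complex, falls outside the name rule. It is counted with the electron carriers below and was lower (-0.41, adjusted p = 0.011). The small subunit UQCRQ had 7.08 and 7.09 against 5.68 and 5.53 (1.48 ± 0.10, adjusted p = 3.50e-05), and UQCR (now UQCR11) was higher too (0.86 ± 0.11, adjusted p = 0.000576). The core protein UQCRC1 was lower (-0.54 ± 0.15, adjusted p = 0.0176), as was the small subunit UQCRB (-0.58 ± 0.11, adjusted p = 0.00475). UQCRFS1, the Rieske iron-sulfur protein, had 0.12 ± 0.09 and did not pass.

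In complex IV, 7 of 16 genes tested were higher and 7 lower. The ubiquitous form COX4I1 was lower (-0.32 ± 0.10, adjusted p = 0.0269) while its isoform COX4I2 was higher (0.94 ± 0.20, adjusted p = 0.00667). COX6A1 was likewise lower (-0.38 ± 0.08, adjusted p = 0.00673) and its muscle isoform COX6A2 higher (1.12 ± 0.10, adjusted p = 0.000138). Over the alternatives the difference of COX6A2 ranged from 0.36 to 1.21. For subunit VIIb the order was the reverse, since the ubiquitous COX7B was higher (0.71 ± 0.08, adjusted p = 0.00045), and COX7B2 was at least 1.60-fold lower in MIA PaCa-2, where it was not well above background (limma adjusted p = 0.000836). COX7B2 had -8.30 and -7.63 on the MIA PaCa-2 and -5.30 and -5.45 on the Capan-1 parental arrays. With normexp background correction neither COX4I2 nor COX7B2 passed. NDUFA4 was lower (-0.70 ± 0.10, adjusted p = 0.000949), COX8A, the ubiquitous form of subunit VIII, was higher (0.35 ± 0.07, adjusted p = 0.00628) and so was COX7A2L, a protein that joins complexes into supercomplexes (0.29 ± 0.10, adjusted p = 0.0439), whereas COX7A2 had -0.01 ± 0.09 and COX6B1 0.04 ± 0.09.

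In complex V, 9 of 16 genes were higher and 4 lower, where all genes gave 40.1% and 31.7%. ATP5A1 (now ATP5F1A), the alpha subunit of the catalytic head, had 6.29 and 6.39 on the MIA PaCa-2 and 4.48 and 4.57 on the Capan-1 parental arrays (1.81 ± 0.09, adjusted p = 1.18e-05). ATP5B (now ATP5F1B), the beta subunit of the same head, differed far less, with 5.57 and 5.55 against 5.10 and 5.30 (0.36 ± 0.12, adjusted p = 0.0395). ATP5I (now ATP5ME), membrane subunit e, had 5.32 and 5.47 against 3.66 and 3.65 (1.74 ± 0.09, adjusted p = 1.18e-05). The genes of ring subunit c, whose probes are printed above, went in opposite directions. ATP5G1 was lower, with 4.29 and 4.53 against 5.28 and 5.17 (-0.81 ± 0.11, adjusted p = 0.000998), and ATP5G3 higher, with 7.04 and 7.0 against 6.31 and 6.22 (0.76 ± 0.09, adjusted p = 0.000581). ATP5G2 had 5.75 and 5.76 against 5.55 and 5.54 (0.21 ± 0.08, adjusted p = 0.0463), a difference that turned to 0 (-0.0016) with a running median over intensity. Among the genes that are no subunits, 2 of 7 were higher and 4 lower. COX4NB (now EMC8), part of an endoplasmic reticulum complex, was lower (-0.73 ± 0.11, adjusted p = 0.00149), and the complex I assembly factors NDUFAF2 and NDUFAF3 had 0.63 ± 0.08 (adjusted p = 0.000777) and -0.64 ± 0.08 (adjusted p = 0.000549).

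The smaller line differences rested on few arrays. NDUFS8, SDHA, UQCRC1, COX4I1, COX7A2L, ATP5B and ATP5G2 each lost their call without at least 2 of the 4 parental arrays, with adjusted p up to 0.196. SDHB, SDHC, COX6A1, COX8A and NDUFV2 kept it with each array left out but lost it under a change of scaling. The line differences of over 0.6 given here for members kept their call under each alternative, with the exception of COX4I2 and COX7B2. A kept call does not mean a kept size, as COX6A2 fell to 0.36 at its lowest. UQCR, UQCRB, NDUFAF2 and NDUFA8, chosen after their values were seen, were not recomputed. Line differences of genes outside the members, such as the cell type markers, CYCS and GABPA, were not recomputed either.

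**Figure D4:**
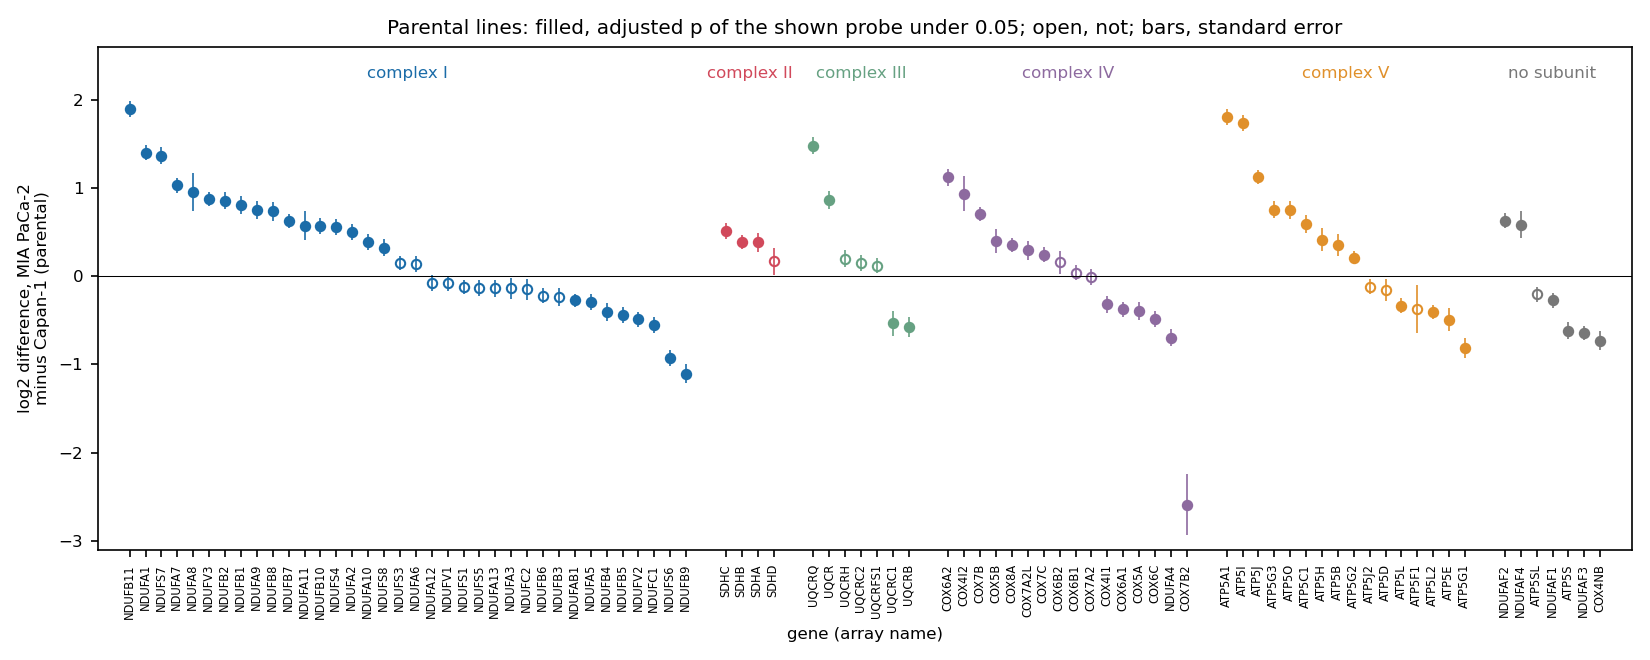
Log2 difference between the parental lines (MIA PaCa-2 minus Capan-1) of 86 of the 87 genes tested, by complex, in order of size. Points are the gene's probe of highest level, bars its standard error, filled points have an adjusted p under 0.05 and open points do not. In every complex but II the points run from above to below 0, from 1.89 for NDUFB11 to -2.59 for COX7B2, which is not a bound because MIA PaCa-2 was not well above background there.

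The line difference was also taken between the siRNA arrays, which lie on the same slides and share with the parental arrays the estimate of the spread. Of 86 genes tested in both, 32 were higher and 30 lower in MIA PaCa-2 siRNA than in Capan-1 siRNA cells (all genes 41.1% and 31.1%). Of these, 32 were also higher and 23 also lower between the parental lines, and 0 genes were called in opposite directions. The other 9 of the 41 higher and 2 of the 25 lower parental calls were not called on the siRNA arrays. Among all 19882 genes tested in both, 7270 of 8163 higher and 5551 of 6178 lower calls were shared, and 56 genes were opposite. Such agreement was thus not particular to the members. NDUFB11 had 1.80 ± 0.09 on the siRNA arrays, ATP5A1 1.73 ± 0.09, ATP5I 1.82 ± 0.09, NDUFB9 -1.17 ± 0.11, ATP5G1 -0.81 ± 0.11 and ATP5G3 0.57 ± 0.09, while ATP5G2 had 0.07 ± 0.08 and did not pass. Among genes that differed between these comparisons, chosen after their values were seen, NDUFA8 had 0.19 on the siRNA arrays (adjusted p = 0.449) and 0.95 on the parental arrays (adjusted p = 0.00818), ATP5F1 -1.11 (adjusted p = 0.0109) and -0.37 (adjusted p = 0.255), and COX4I2 1.67 and 0.94. The difference between both line comparisons is by construction that between the siRNA effects, for which 0 members passed.

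Line differences of members went along with those of their neighbors on the chromosome. All 3 genes of chromosome X tested (NDUFB11, NDUFA1 and COX7B) and all 3 of chromosome 21 (ATP5J, NDUFV3 and ATP5O) were higher in MIA PaCa-2, and all 4 of chromosome 3 (NDUFAF3, UQCRC1, NDUFB5 and NDUFB4) and all 3 of chromosome 8 (NDUFB9, UQCRB and COX6C) were lower. Of other genes, 56.5% were called higher on X and 48.4% on 21, and 47.5% were called lower on 3 and 40.9% on 8. These chromosomes were singled out after their values were seen. To describe this over the genome, each member was set against the median difference of the other tested genes within 5 Mb on either side in hg18. NDUFB11 (1.89) lay among 90 such genes with a median of 0.86, and ATP5A1 (1.81) on chromosome 18 among 39 with a median of 1.36. ATP5I (1.74) on chromosome 4 had 78 with a median of 1.08, and NDUFB9 (-1.10) had 42 with a median of -0.95. The ring subunit genes had neighbors of their own sign, as ATP5G1 (-0.81) on chromosome 17 had neighbors at -0.37 and ATP5G3 (0.76) on chromosome 2 at 0.45.

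Over the 87 members the difference of the gene and the median of its neighbors had a correlation of 0.740 (Pearson) and 0.731 (Spearman), and 65 (74.7%) had the same sign. The same values for other genes in the members' intensity range were 0.340 and 0.384 with 65.8% of the same sign (n = 2831), and for all other genes 0.183 and 0.234 with 59.5% (n = 19862). These correlations are descriptions across genes measured on the same 4 arrays, with no test of the difference between the sets, and members on 1 chromosome stretch share neighbors. The sets also differ in spread, so their correlations cannot be compared directly. In the same order, the standard deviation was 0.71, 1.03 and 1.96 for the gene differences and 0.43, 0.36 and 0.39 for the neighbor medians. The share of the same sign moved with the scaling, to 57 of 87 (65.5%) against 62.9% in the intensity range with spike-in scaling, 59 (67.8%) against 63.3% with a running median over intensity, 60 (69.0%) against 64.6% with normexp and 62 (71.3%) against 64.1% with quantile scaling. The correlation cannot move when a constant is added to every gene. With members at least 10 Mb apart r was 0.723 (n = 63), with windows of 1 Mb 0.712 (n = 72) and of 10 Mb 0.773, and without COX7B2, the lowest value, 0.757. On the siRNA arrays, from the same slides, r was 0.767 (n = 86). For the siRNA effects r over the members was -0.040 (MIA PaCa-2) and 0.159 (Capan-1). The members with neighbors above 0 had a median line difference of 0.50 (40 of 53 above 0) and those with neighbors below 0 a median of -0.35 (25 of 34 below 0).

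**Figure D5:**
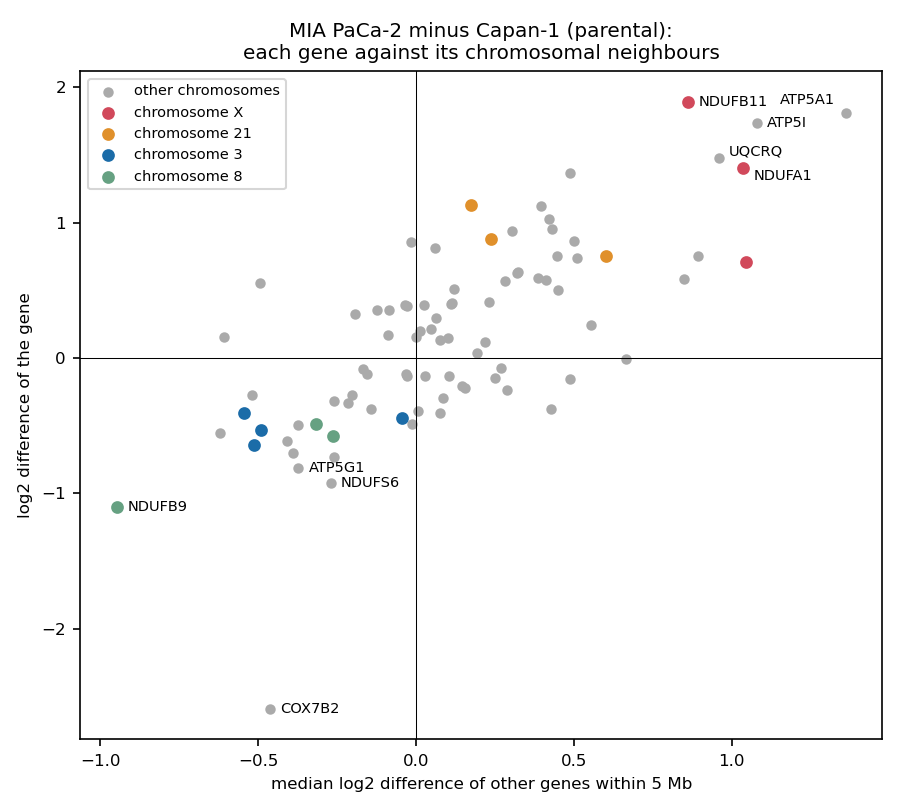
Log2 difference between the parental lines (MIA PaCa-2 minus Capan-1) of each of the 87 members (vertical) against the median difference of the other tested genes within 5 Mb of it (horizontal). Points are genes, with those on chromosomes X, 21, 3 and 8 in color. Points rise from lower left to upper right with a Pearson r of 0.740, and 65 of 87 lie in the quadrants where gene and neighbors have the same sign.

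Other genes of the pathway are given beside all genes, of which 40.1% were higher and 31.7% lower between the parental lines. Of 39 tested assembly factors outside the rule, 0 passed after siRNA in either line, and 17 were higher and 10 lower in MIA PaCa-2 than in Capan-1, shares near those of all genes, with a median of 0.15 against 0.10 for all genes. Of 17 genes of electron carriers and quinone synthesis, 0 passed after siRNA and 9 were higher and 5 lower between lines (median 0.34). CYCS, which codes for cytochrome c, the carrier between complexes III and IV, was lower in MIA PaCa-2 (-1.66, adjusted p = 7.73e-05), and PDSS2, of the quinone side chain pathway, was higher (1.43, adjusted p = 1.86e-05). Of 13 regulators of mitochondrial biogenesis, 0 passed after siRNA, and 3 were higher and 6 lower between lines (median 0.01). The coactivator PPARGC1B was lower in MIA PaCa-2 (-1.67, adjusted p = 5.93e-05), as was the receptor ESRRA (-0.86, adjusted p = 0.000576). GABPA was higher (1.65, adjusted p = 0.000229), whereas GABPB1 was lower (-1.01, adjusted p = 0.0116). POLG was lower too (-0.61, adjusted p = 0.000611), while TFB1M (1.28, adjusted p = 0.000491) and POLRMT (0.72, adjusted p = 0.0066) were higher. PPARGC1A was also called lower, but its signal was well above background on neither MIA PaCa-2 parental array. Of 16 genes of the tricarboxylic acid cycle, which supplies NADH and succinate, 0 passed after siRNA, and 10 were higher and 1 lower between lines (median 0.41), among them PDHA1 on chromosome X (1.61, adjusted p = 1.53e-05). No probe under the names of the 13 mitochondrially encoded subunits was found, and these are not analysed here.

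Different probes of a gene did not always give the same sign. Of the 15 members with more than 1 probe tested, the probes differed in sign for 6 in the MIA PaCa-2 siRNA comparison and 5 in Capan-1, where the values lie near 0, and for 2 between the parental lines, COX6B2 and SDHD. For NDUFC2, a complex I accessory subunit chosen after its values were seen, the Capan-1 values of its probes were -0.23 and 0.29. The duplicate pairs and the 1 probe that most genes have limit the precision of all values given here.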

How the data were processed

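Per the labels and the study's methods, total RNA (200 ng) was labeled with Cy3 and hybridized to 8 one-color arrays. The authors deposited spot intensity from Agilent Feature Extraction 9.5.3, background-subtracted and detrended within the array. Their deposited log2 table equals the log2 of this intensity, so nothing had been scaled between arrays.

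Spots without an outlier flag were averaged per probe on the log2 scale and the 75th percentile of each array was subtracted. A comparison took in every probe with signal well above background on both arrays of either group. The 4 group means were fitted over the 8 arrays with lmFit and eBayes (limma 3.58.1, R 4.3.3; two-sided, Benjamini-Hochberg over the probes tested, adjusted p under 0.05). A gene counted as lower or higher if any of its probes passed that way and no other probe passed the opposite way. Values of a gene are those of its probe of highest mean level. The folds of COX7B2 and HOXB7 are bounds, with the dimmest signal above background in place of the level not above it.

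Of the 110 probes, 108 were named through their accession and 2 through their symbol. Named genes are the catalytic subunits and isoform families, up to 6 rises and 6 falls past the threshold with the largest change in a comparison, and, where none passed, the 3 rises and 3 falls of smallest p, with any other marked as such. The single values of 1 member are not reported here, while counts and medians include it. The members, lists and rules were chosen with earlier results of these data known. The steps were tested on simulated data with 200 of 25554 probes changed, drawn at random over all intensities. Changes of 0.5 log2 were recovered in 0% in both siRNA comparisons, so a change of this size can go uncalled. The simulated line comparison gave 0% at 0.5 log2 as well, whereas members with smaller real line differences passed, such as COX7A2L at 0.29. The simulated shares are thus not those for the members. Changes of 1 log2 were recovered in 48.5% (MIA PaCa-2) and 51% (Capan-1). Alternatives were the background correction, scaling, outlier spots, filter, groups fitted, replicate block, intensity trend, the interval of the parental arrays and each array left out. Neighborhoods and the siRNA arrays as a second line comparison were added after the data were seen. Tables were handled in Python 3.11.15 with pandas 2.3.3 and figures drawn with matplotlib 3.10.9.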

Additional observations from a re-analysis of the deposited data

How the results depend on the processing

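After siRNA in MIA PaCa-2 the count of lower members was 1 in place of 0 with normexp background correction, under a filter asking for signal on all 8 arrays and with a spread that follows intensity, where 2.51%, 3.20% and 3.44% of all genes were called lower. It was 0 to 1 with each array left out, the 1 being ATP5F1 without MIA PaCa-2 siRNA replicate 2 (the array left stood apart and is taken to vary like the other groups), which also gave 1 lower member for the difference between the lines (0 to 1). The higher counts in both lines and the lower count in Capan-1 were 0 under each of these alternatives, including the interval of the parental arrays.

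The medians moved with the scaling, together with those of all genes. In MIA PaCa-2 the median was -0.229 without scaling and -0.102 with spike-in scaling (all genes -0.197 and -0.070), and -0.044 to 0.031 with each array left out. In Capan-1 it was -0.066 and -0.187 (all genes -0.156 and -0.277), and 0.062 to 0.122. The median difference between the lines was 0.088 with spike-in scaling (all genes 0.203), and -0.143 to -0.062 with each array left out. Between the parental lines it was 0.092 with normexp, 0.028 with quantile scaling, 0.026 with spike-in scaling, -0.0066 with a running median over intensity and 0.125 to 0.212 with each array left out. There 11 members were lower without scaling, 26 were higher with spike-in scaling, and 16 to 27 were lower and 33 to 39 higher with each array left out, the 16 without Capan-1 parental replicate 1. ATP5G2 was -0.0016 with a running median, in place of 0.21. The cause of these changes was not tested.

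Same-numbered duplicates deviated with a correlation of 0.02 (MIA PaCa-2) and 0.038 (Capan-1), so no deviation shared by number was seen over the probes. Whether samples of the same number share a culture or a day is not stated, and these values cannot decide it. With the replicate number as a block, 0 members passed after siRNA in either line, and 27 were lower and 39 higher between the parental lines. The correlation of members with their neighbors was 0.712 to 0.773 over the alternatives.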
